A study of Mus musculus with 48 samples.

Results

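The cytochrome P450 enzymes of the Cyp4 family were measured in the liver of 48 male mice that carried 2, 1 or no intact copies of Wfs1 and received valproic acid (VPA) or saline. All probesets whose annotated gene symbol was Cyp4a10, Cyp4a12a, Cyp4a12b, Cyp4a14, Cyp4a31, Cyp4a32, Cyp4f13, Cyp4f14, Cyp4f15 or Cyp4v3 were taken, which gave 10 of the 35556 probesets on the array. The mice were wild type (WT, Wfs1 +/+), heterozygous (HZ, Wfs1 +/-) or homozygous mutant (KO, Wfs1 -/-). In each genotype 8 mice received VPA at 300 mg/kg i.p. daily and 8 received 0.9% saline at 10 mL/kg, for 12 weeks from an age of 4 to 6 weeks. All 6 groups of 8 mice had regular chow, underwent a glucose tolerance test with 2 g/kg glucose 24 h after the last injection, and were killed 24 h after that test at 16 to 18 weeks of age. The last dose of VPA was thus given 48 h before the liver was taken. The Wfs1 mutation removes only part of the gene, and the strain background of the mice was not given in the sources used here.

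Cyp4 enzymes add oxygen to the far (omega) end of fatty acids, leukotrienes and related lipids, the opening step of omega-oxidation, which ends in dicarboxylic acids that peroxisomes shorten. In mouse liver Cyp4a10, Cyp4a14 and Cyp4a31 are known as targets of the fatty acid receptor PPAR alpha and rise on fasting and with fibrates, whereas Cyp4a12a and Cyp4a12b are known for higher expression in males and for their control by androgen and growth hormone. Cyp4a12a makes 20-HETE from arachidonic acid. The Cyp4f enzymes are known for inactivating leukotriene B4 and oxidizing very long chain fatty acids, and Cyp4v3 is the mouse counterpart of the human gene mutated in Bietti crystalline dystrophy.

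The 6 Cyp4a genes lie side by side on chromosome 4 within 323.5 kb (GRCm38), in the order Cyp4a12a (115299046 to 115332815), Cyp4a12b (115411624 to 115439034), Cyp4a14 (115486200 to 115496158), Cyp4a10 (115518287 to 115533649), Cyp4a31 (115563627 to 115579015) and Cyp4a32 (115600927 to 115622507). The 3 Cyp4f genes lie on chromosome 17 between 32685631 and 32947415, and Cyp4v3 on chromosome 8 from 45305801 to 45333163. Of the 10 probesets 8 carried 1 symbol each. The only probeset for Cyp4a32 was also annotated to Cyp4a31 and Cyp4a10, and its 10 accessions held all 5 of the Cyp4a10 probeset and all 3 of the Cyp4a31 probeset. It is called the 3-gene probeset here, it gives no level for Cyp4a32 alone, and it is not independent of the other 2. The only probeset for Cyp4v3 was also annotated to the neighbouring gene Klkb1, plasma kallikrein, 11 kb away, and is written Cyp4v3/Klkb1. Cyp4a12a and Cyp4a12b are near copies of each other, so probes may have been shared by their transcripts, and their values are likewise uncertain as 2 separate measurements.

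No RefSeq promoter was available here for Cyp4a10, Cyp4a12a, Cyp4a12b, Cyp4a14 or Cyp4a31, so the search below does not cover them. The other 5 of the 10 genes matched 8 RefSeq promoters (GRCm38.p6, 250 bases before to 50 bases after the start). They were searched on both strands for AGGTCANAGGTCA, the direct repeat bound by PPAR and RXR, for its single unit AGGTCA, for the STAT site TTCNNNGAA, for the D-box TTATGTAA and for the E-box CACGTG. Shown are the promoters of Cyp4v3 and Cyp4f15, whose probesets passed a test in these mice, and of Cyp4a32, from the Cyp4a cluster, each from 5′ to 3′ along the gene. Capitals mark the single match, the E-box of Cyp4v3, whose first base lies at -171 from the start.
Cyp4v3 (chr8:45333114-45333413, minus strand): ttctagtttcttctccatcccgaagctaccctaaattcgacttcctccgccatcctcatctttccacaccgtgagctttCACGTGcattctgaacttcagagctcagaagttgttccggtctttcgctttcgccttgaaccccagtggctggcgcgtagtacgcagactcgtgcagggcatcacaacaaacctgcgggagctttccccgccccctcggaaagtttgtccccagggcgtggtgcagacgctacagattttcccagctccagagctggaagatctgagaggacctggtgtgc
Cyp4f15 (chr17:32685409-32685708, plus strand): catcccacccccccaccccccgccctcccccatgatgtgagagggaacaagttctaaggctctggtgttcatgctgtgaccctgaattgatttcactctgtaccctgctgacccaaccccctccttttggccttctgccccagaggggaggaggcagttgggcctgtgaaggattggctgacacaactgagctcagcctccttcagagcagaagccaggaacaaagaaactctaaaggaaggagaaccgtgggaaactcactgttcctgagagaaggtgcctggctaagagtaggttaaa
Cyp4a32 (chr4:115600688-115600987, plus strand): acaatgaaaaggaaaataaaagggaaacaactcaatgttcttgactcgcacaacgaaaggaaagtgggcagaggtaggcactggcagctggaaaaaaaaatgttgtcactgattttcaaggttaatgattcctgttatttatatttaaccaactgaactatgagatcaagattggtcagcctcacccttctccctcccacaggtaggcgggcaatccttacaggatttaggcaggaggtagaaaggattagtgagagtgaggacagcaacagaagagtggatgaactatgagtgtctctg
The promoter of Cyp4f13 held a STAT site at -22, and no promoter of Cyp4f14 held any of these letters. Of all 32851 RefSeq promoters of this length 7.15% held the E-box, 8.3% the STAT site, 0.938% the D-box, 16.3% AGGTCA and 0.0396% the direct repeat, where AGGTCA matches include those inside the repeat. GC content was 42.7% for Cyp4a32, 55.0% for Cyp4f15 and 55.3% for Cyp4v3. A match describes these letters only.

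The arrays held log2 values from 2.12 to 14.8 with medians between 6.90 and 7.03, any pair of arrays correlated with r between 0.971 and 0.994, and no array was left out. The probeset of Wfs1, the targeted gene, differed by -0.15 between KO and WT mice (SE 0.07, limma adjusted p = 0.32). It also reads exons outside the mutated part, so it does not check the labels. Defining markers of hepatocytes were high in every group, with a mean over 7 genes per mouse between 13.84 and 14.02. All 10 Cyp4 probesets had group means above 10 on the log2 scale in all 6 groups. Levels of different probesets are not compared, since each has its own probes.

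KO mice differed from WT mice in the male-biased Cyp4a12 pair, which was lower, in Cyp4a14, which was higher, and in Cyp4v3/Klkb1, which was slightly lower. Over both treatments Cyp4a12a was 4.47-fold and Cyp4a12b 4.28-fold lower in KO mice, Cyp4a14 was 1.99-fold higher and Cyp4v3/Klkb1 1.20-fold lower. Thus 4 of the 10 probesets passed the test (limma, Benjamini-Hochberg over all 35556 probesets, adjusted p under 0.05), against 2.94% of all probesets. Of these 1 was higher, against 1.37% of all, and 3 were lower, against 1.57%. The median difference over the 10 was -0.02 on the log2 scale, beside 0.01 over all probesets, as the members moved in both directions. The study itself had picked Cyp4a12a, Cyp4a12b and Cyp4a14 in these mice, so their direction is not independent evidence here. In whole liver, fewer cells of a type and less RNA per cell cannot be told apart.

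In WT mice given saline Cyp4a12a lay in a narrow band, with a lowest value of 13.58, a median of 13.64 and a highest value of 13.72 on the log2 scale. In KO mice given saline the lowest value was 5.80, the median 11.21 and the highest 13.57. All 8 KO mice were thus below every WT mouse, the highest of them only just. Their values were 13.20, 10.11, 10.98, 7.24, 5.80, 11.45, 13.57 and 12.35 for replicates 1 to 8. Replicate 4 was 84.4-fold below the mean of the WT mice given saline and replicate 7 was 1.05-fold below it. The value of replicate 5 was under the median of every array, and whether it was above background was not measured here, so no fold is given for it and means that hold it may understate the difference. The SD was 2.78 among these KO mice and 0.05 among the WT mice (n = 8 each). The difference of means was -3.05 (SE 0.69, 8.27-fold, limma adjusted p = 0.0165), and a two-sided exact permutation test gave p = 0.000155, the smallest value that 8 against 8 mice allow. Cyp4a12a kept its call in neither of the fits without KO replicate 4 (-2.57, adjusted p = 0.076) or replicate 5 (-2.36, adjusted p = 0.0608), nor in the fit of WT and KO arrays alone (adjusted p = 0.111).

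Under VPA the KO mice spread as well, with Cyp4a12a values of 13.68, 13.02, 13.07, 7.59, 10.83, 13.50, 13.51 and 13.38 for replicates 1 to 8. The WT mice given VPA had a lowest value of 13.36, a median of 13.60 and a highest value of 13.73. Here the groups overlapped, and 4 of the 8 KO mice fell inside the WT range. The difference between KO and WT mice under VPA was -1.27 (SE 0.69, limma adjusted p = 0.705, exact permutation p = 0.0107). Without KO replicate 4 the difference was -0.59. Replicate 4 was 64.1-fold below the mean of the WT mice given VPA and replicate 5 was 6.77-fold below it.

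Cyp4a12b followed the same mice. Its lowest, median and highest values were 13.12, 13.35 and 13.49 in WT mice given saline and 6.02, 10.89 and 13.12 in KO mice given saline. Replicates 4 and 5 were again the lowest KO mice, at 6.48 and 6.02, both under the median of every array. All 8 KO mice were below the WT mean and 6 of 8 below every WT mouse. The difference in saline was -2.95 (SE 0.66, 7.75-fold, limma adjusted p = 0.0159, exact permutation p = 0.000622). Under VPA the values were 13.06, 13.34 and 13.57 in WT mice and 7.64, 12.84 and 13.42 in KO mice, which overlapped, and the difference was -1.24 (limma adjusted p = 0.695, exact permutation p = 0.00591), or -0.61 without KO replicate 4. As for Cyp4a12a, the call in saline was lost without KO replicate 4 (adjusted p = 0.072), without replicate 5 (adjusted p = 0.0605) and with WT and KO arrays alone (adjusted p = 0.107).

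Over both treatments 12 of 16 KO mice were below every WT mouse of their own treatment for Cyp4a12a and 11 of 16 for Cyp4a12b. The differences were -2.16 (SE 0.49, 95% interval -3.14 to -1.18, adjusted p = 0.00587, limma) for Cyp4a12a and -2.10 (SE 0.47, -3.04 to -1.15, adjusted p = 0.00528) for Cyp4a12b. Against HZ mice the KO mice were lower by nearly the same amounts, with differences of -2.08 for both Cyp4a12a (adjusted p = 0.0137) and Cyp4a12b (adjusted p = 0.00918). In that comparison 3 of the 10 probesets passed, all lower in KO mice, against 1.44% of all probesets in either direction and 0.779% lower. The third was Cyp4v3/Klkb1.

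**Figure D1:**
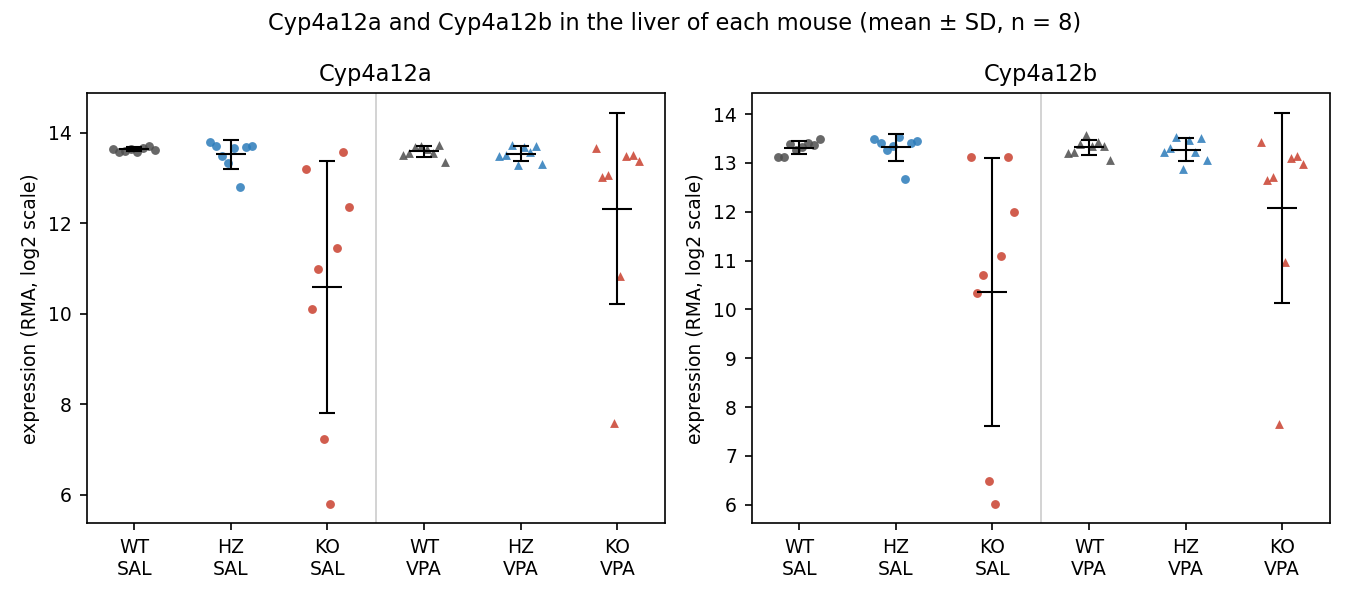
Log2 RMA value (vertical axis) of Cyp4a12a and Cyp4a12b in each mouse of the 6 groups of genotype and treatment (horizontal axis), 1 point per mouse, with the group mean and SD (n = 8). WT and HZ mice stay at or above 12.68, whereas KO mice reach down to 5.80 for Cyp4a12a and 6.02 for Cyp4a12b.

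Cyp4a14, a PPAR alpha target that oxidizes medium and long chain fatty acids, was the member that rose in KO mice. In saline its lowest, median and highest values were 9.96, 11.53 and 13.29 in WT mice, 9.34, 12.20 and 12.96 in HZ mice and 12.41, 13.03 and 13.36 in KO mice. The WT and HZ mice spread widely (SD 1.07 and 1.15) and reached into the range of the KO mice, which lay close together (SD 0.35). All 8 KO mice were above the WT mean. The difference between KO and WT mice in saline was 1.30 (SE 0.34, 2.47-fold, limma adjusted p = 0.0472, exact permutation p = 0.00528). In 37 of the 48 fits that each left out 1 array this adjusted p rose above 0.05, over a range from 0.00865 to 0.143. Under VPA the values were 12.08, 12.60 and 12.87 in WT mice and 12.64, 13.18 and 13.71 in KO mice, with a difference of 0.68 (limma adjusted p = 0.638, exact permutation p = 0.000932). Over both treatments the difference was 0.99 (SE 0.24, 95% interval 0.51 to 1.47, limma adjusted p = 0.0108), 16 of 16 KO mice were above the mean of the WT mice of their treatment, and the call held in all 48 of those fits. Against HZ mice the difference was 0.85, with 16 of 16 KO mice above the HZ mean, and did not pass (adjusted p = 0.0592). It passed with array weights (adjusted p = 0.0465), among 1-symbol probesets (adjusted p = 0.0351) and with the clock index described further on (adjusted p = 0.0411), and without WT saline replicate 4 or 6, HZ saline replicate 5 or 6, or KO replicate 6 under VPA (adjusted p 0.0334 to 0.0472).

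Cyp4a10 and Cyp4a31, the other PPAR alpha targets of the cluster, did not pass the test for KO against WT. Under VPA Cyp4a10 had a lowest value of 11.78, a median of 12.26 and a highest value of 12.41 in WT mice, and 12.35, 12.70 and 13.25 in KO mice. Of the 8 KO mice 7 were above every WT mouse. The difference was 0.63 (SE 0.18, limma adjusted p = 0.135, exact permutation p = 0.000311). For Cyp4a31 under VPA the values were 10.77, 11.28 and 11.54 in WT mice and 11.33, 11.90 and 12.59 in KO mice, with a difference of 0.72 (limma adjusted p = 0.203, exact permutation p = 0.0014). The 3-gene probeset, which shares their accessions, differed by 0.60 under VPA (limma adjusted p = 0.188, exact permutation p = 0.0014). In saline the differences of these probesets were smaller than the spread between mice, at 0.22 for Cyp4a10 (adjusted p = 0.836), 0.17 for Cyp4a31 (adjusted p = 0.923) and 0.11 for the 3-gene probeset (adjusted p = 0.948). Over both treatments the differences were 0.42 for Cyp4a10 (SE 0.13, 95% interval 0.16 to 0.69, adjusted p = 0.063), 0.44 for Cyp4a31 (adjusted p = 0.142) and 0.35 for the 3-gene probeset (adjusted p = 0.163). Without WT saline replicate 4 alone, Cyp4a10 (adjusted p = 0.0124), Cyp4a31 (adjusted p = 0.0455) and the 3-gene probeset (adjusted p = 0.0477) all passed.

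**Figure D2:**
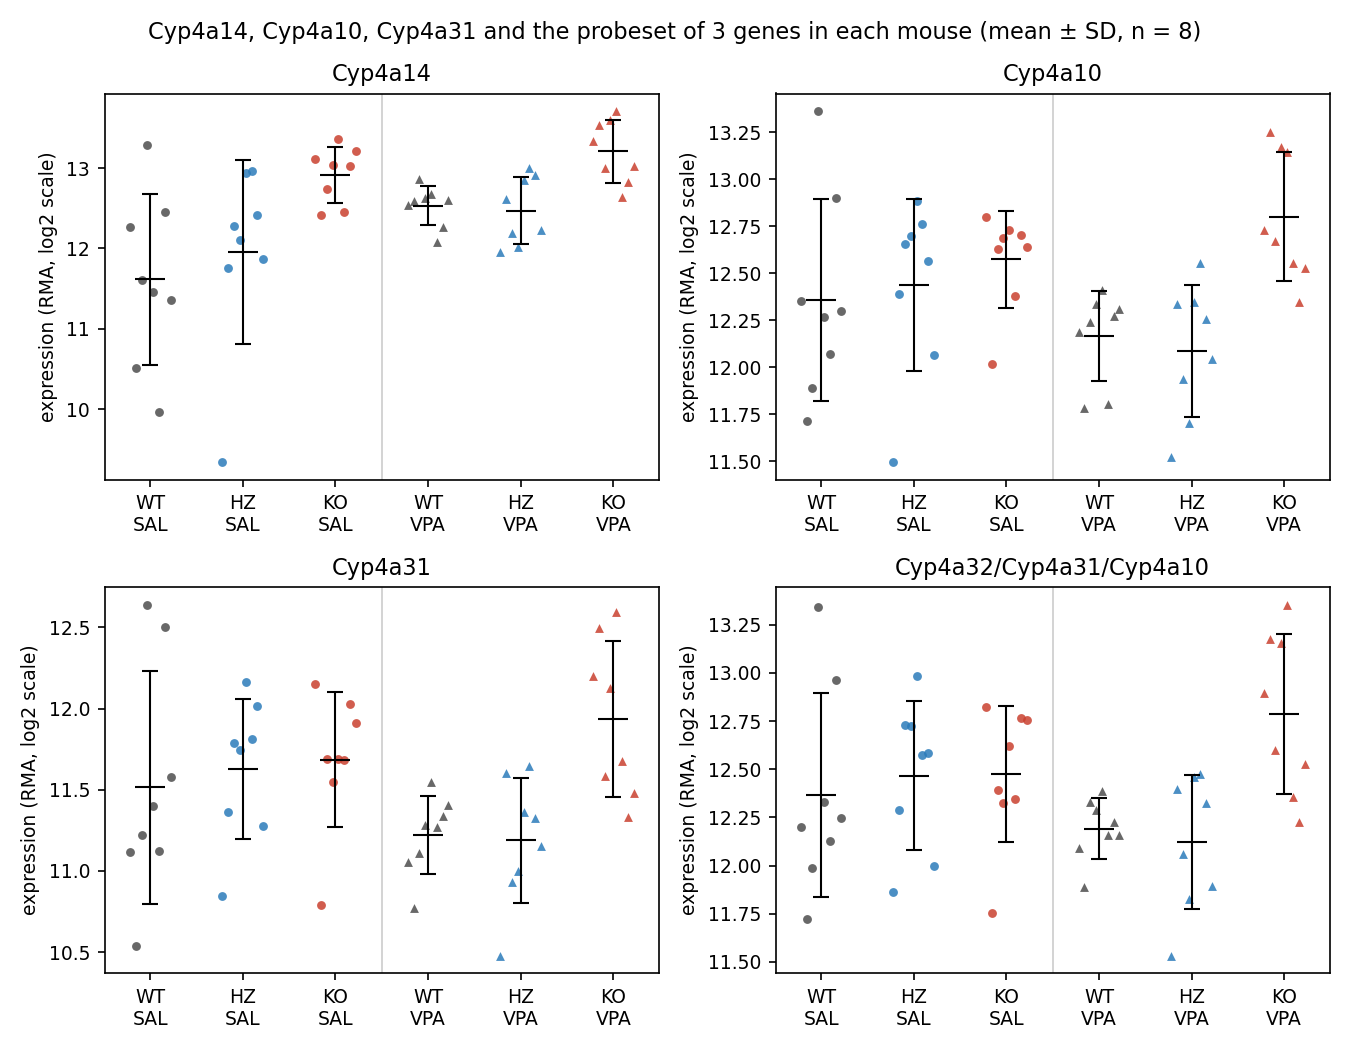
Log2 RMA value (vertical axis) of Cyp4a14, Cyp4a10, Cyp4a31 and the 3-gene probeset in each mouse of the 6 groups (horizontal axis), with the group mean and SD (n = 8). For Cyp4a14 the KO mice lie between 12.41 and 13.71, while WT and HZ mice given saline reach down to 9.34.

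Within saline 3 of the 10 probesets passed for KO against WT, against 0.79% of all probesets (1 higher, against 0.292%, and 2 lower, against 0.498%), and 4 of 10 had an exact permutation p under 0.05. Within VPA none of the 10 passed in limma, against 0.405% of all probesets. An unadjusted limma p under 0.05 was found for 4 of the 10, against 2812 of all 35556 probesets. For 7 of the 10 the exact permutation p was under 0.05. These included Cyp4a10, Cyp4a31 and the 3-gene probeset that shares their accessions, and both genes of the Cyp4a12 pair. They are thus not 7 separate measurements. The exact tests numbered 30 and their p-values are unadjusted. All were run on these 10 probesets, so they have no share over all probesets beside them. They were added after the data had been seen, because groups differed in spread and limma shares 1 estimate per probeset among them. The exact test in turn takes the 2 groups as alike in spread too. A small p-value from it therefore does not single out a shift of the mean where the spreads differ. For the Cyp4a12 pair the KO mice spread most, and for Cyp4a14 the WT and HZ mice given saline did (SD 1.07 and 1.15).

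Cyp4v3/Klkb1 was lower in KO mice by a small amount. Its lowest, median and highest values in saline were 11.66, 11.81 and 11.94 in WT mice and 11.23, 11.47 and 11.87 in KO mice. Under VPA they were 11.68, 11.76 and 11.98 in WT mice and 11.04, 11.67 and 11.85 in KO mice. The genotypes overlapped under both treatments, and 13 of 16 KO mice were below the WT mean of their treatment. The difference over both treatments was -0.26 (SE 0.06, 95% interval -0.38 to -0.14, limma adjusted p = 0.00833), and against HZ mice it was -0.28 (adjusted p = 0.00516). Neither within saline (-0.28, limma adjusted p = 0.116, exact permutation p = 0.0117) nor within VPA (-0.23, limma adjusted p = 0.355, exact permutation p = 0.0311) did it pass in limma. Whether Cyp4v3 or Klkb1 transcripts carried the difference cannot be told apart with this probeset.

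The Cyp4f probesets barely differed between KO and WT mice. Group means of Cyp4f14, a leukotriene B4 hydroxylase, ran from 12.00 to 12.07, and those of Cyp4f13, from 10.83 to 10.93. The differences between KO and WT mice were -0.07 for Cyp4f13 (adjusted p = 0.511), -0.03 for Cyp4f14 (adjusted p = 0.896) and -0.01 for Cyp4f15 (95% interval -0.09 to 0.08, adjusted p = 0.977).

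Over both treatments none of the 10 probesets passed for HZ against WT in limma. None had an unadjusted p under 0.05, against 1919 of all 35556 probesets. Only 0.00281% of all probesets passed, a single probeset. The differences and their 95% intervals were -0.08 (-1.07 to 0.90) for Cyp4a12a, -0.02 (-0.96 to 0.93) for Cyp4a12b, 0.14 (-0.34 to 0.62) for Cyp4a14 and 0.00 (-0.26 to 0.26) for Cyp4a10. The intervals of the Cyp4a12 pair are wide, because the spread is estimated over all mice, KO mice included. In the mice themselves, the HZ values of Cyp4a12a ran from 12.80 to 13.80 in saline and from 13.28 to 13.73 under VPA, and overlapped those of the WT mice under both treatments. Within saline none passed either, against 0.304% of all probesets. While 3792 of all 35556 probesets had an unadjusted p under 0.05, 1 of the 10 did. That was Cyp4f15, with a difference of 0.14 (adjusted p = 0.388) and 7 of 8 HZ mice above the WT mean. KO and HZ mice were both compared with the same WT mice.

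VPA changed 1 of the 10 probesets over the 3 genotypes, against 8.61% of all probesets in either direction and 4.6% lower, so the share was near that of the whole array. The probeset was that of Cyp4f15, which fell. The median difference over the 10 was -0.02, as over all probesets. Of all probesets 1425 were higher and 1637 lower, and with arrays centred on their median 1871 were higher and 860 lower. In HZ mice the lowest, median and highest values of Cyp4f15 were 11.70, 11.82 and 12.08 in saline and 11.55, 11.59 and 11.88 under VPA. Of the 8 HZ mice given VPA 7 were below every HZ mouse given saline, and the difference was -0.21 (SE 0.06, 1.16-fold, limma adjusted p = 0.0195). The HZ mice given saline had the highest mean, 11.85, beside 11.71 in WT and 11.69 in KO mice given saline, whereas the means under VPA were 11.62, 11.64 and 11.62 in WT, HZ and KO mice. In saline KO mice differed from HZ mice by -0.16 (adjusted p = 0.229), with 8 of 8 KO mice below the HZ mean. Cyp4f15 was the only member that passed within HZ mice, where 10.5% of all probesets did, 5.76% lower. In WT mice Cyp4f15 differed by -0.08 between treatments (adjusted p = 0.999) and in KO mice by -0.07 (adjusted p = 0.881). Over the 3 genotypes the difference was -0.12 (SE 0.03, 95% interval -0.19 to -0.05, 1.09-fold, adjusted p = 0.0222), with 20 of 24 mice given VPA below the saline mean of their genotype.

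Clock genes moved with VPA in the same livers. Beside 8.61% of all probesets in either direction and 4.6% lower, 4 of 18 measured clock genes were higher and 13 lower. Their part in the Cyp4f15 difference was not tested, and a fit with a clock index as a covariate is described here. The index, a mean score of genes that peak at one time of day minus that of genes that peak at the opposite time, averaged -0.54, -2.26 and -0.88 in WT, HZ and KO mice given saline and 2.12, 1.75 and -0.19 in those given VPA. With the index in the fit, Cyp4f15 differed by 0.02 between VPA and saline over the 3 genotypes (adjusted p = 0.977) and by 0.01 in HZ mice (adjusted p = 0.992), and no probeset on the array passed for VPA. Across the 48 mice, with group means removed, the index correlated with Cyp4f15 with r = -0.361 (permutation adjusted p = 0.0419) and rho = -0.402 (adjusted p = 0.016), and r was -0.346 without the 2 mice farthest from the median. For Cyp4f13 r was -0.479 (rho -0.469, adjusted p = 0.00669 for r). The index and the treatment go together (correlation 0.74 over the mice), so the 2 cannot be told apart in these mice. The 4 calls for KO against WT were kept in that fit, at -2.71 for Cyp4a12a (adjusted p = 0.0115), -2.63 for Cyp4a12b (adjusted p = 0.0109), 1.21 for Cyp4a14 (adjusted p = 0.029) and -0.29 for Cyp4v3/Klkb1 (adjusted p = 0.0414).

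**Figure D3:**
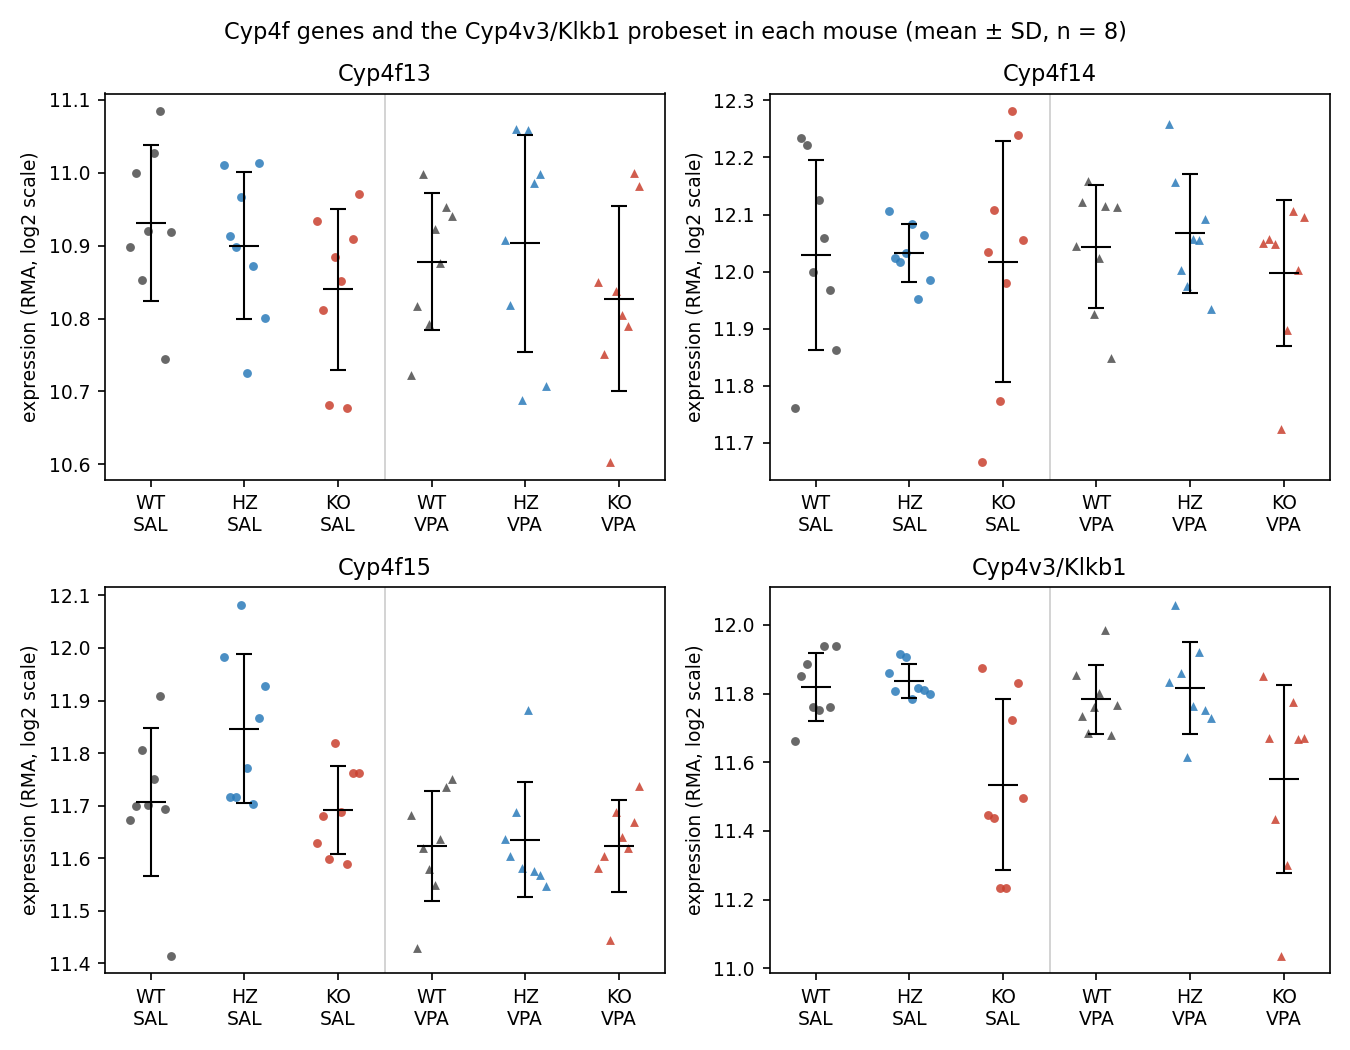
Log2 RMA value (vertical axis) of Cyp4f13, Cyp4f14, Cyp4f15 and Cyp4v3/Klkb1 in each mouse of the 6 groups (horizontal axis), with the group mean and SD (n = 8). Group means of Cyp4f14 stay between 12.00 and 12.07, and those of Cyp4v3/Klkb1 are 11.53 and 11.55 in KO mice against 11.78 to 11.84 in WT and HZ mice.

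Cyp4a14 had a higher mean under VPA in each genotype without passing the test. The difference over the 3 genotypes was 0.57 (SE 0.20, 95% interval 0.18 to 0.97, limma adjusted p = 0.0552), with 21 of 24 mice given VPA above the saline mean of their genotype. It was 0.92 in WT mice (adjusted p = 0.594), 0.51 in HZ mice (adjusted p = 0.312) and 0.29 in KO mice (adjusted p = 0.927). The value in HZ mice was 0.14 without HZ saline replicate 1, the mouse at 9.34. Cyp4a10 and Cyp4a31, which share its known regulator, differed by -0.10 (adjusted p = 0.555) and -0.16 (adjusted p = 0.451) instead. Within WT mice none of the 10 passed in limma, and 0.0703% of all probesets were called. An unadjusted p under 0.05 was found for 1 of the 10 and for 1973 of all 35556 probesets. Within KO mice none passed either, and 0.0112% of all probesets were called. There 2547 of all probesets had an unadjusted p under 0.05, and so did 2 of the 10.

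Those 2 were the Cyp4a12 pair, whose means were higher in KO mice given VPA than in KO mice given saline. The difference was 1.74 for Cyp4a12a (SE 0.69, 95% interval 0.35 to 3.13, limma adjusted p = 0.575, exact permutation p = 0.178) and 1.72 for Cyp4a12b (limma adjusted p = 0.544, exact permutation p = 0.171). The spread among KO mice was as large as the difference. Without KO saline replicate 5 the differences were 1.05 for Cyp4a12a and 1.1 for Cyp4a12b, and without KO replicate 4 under VPA they were 2.41 and 2.35. The effect of VPA was set against genotype by an interaction test, which none of the 10 passed (limma adjusted p 0.605 to 0.979). Of all probesets 0.0816% were called. An unadjusted p under 0.05 was found for 1 of the 10, the 3-gene probeset, against 2806 of all 35556 probesets. The effect of VPA in KO mice minus that in WT mice was 1.78 for Cyp4a12a (SE 0.98), 1.71 for Cyp4a12b, -0.63 for Cyp4a14, 0.42 for Cyp4a10 and 0.55 for Cyp4a31, each with an adjusted p of 1. A different response of the genotypes to VPA was therefore not shown for any member.

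**Figure D4:**
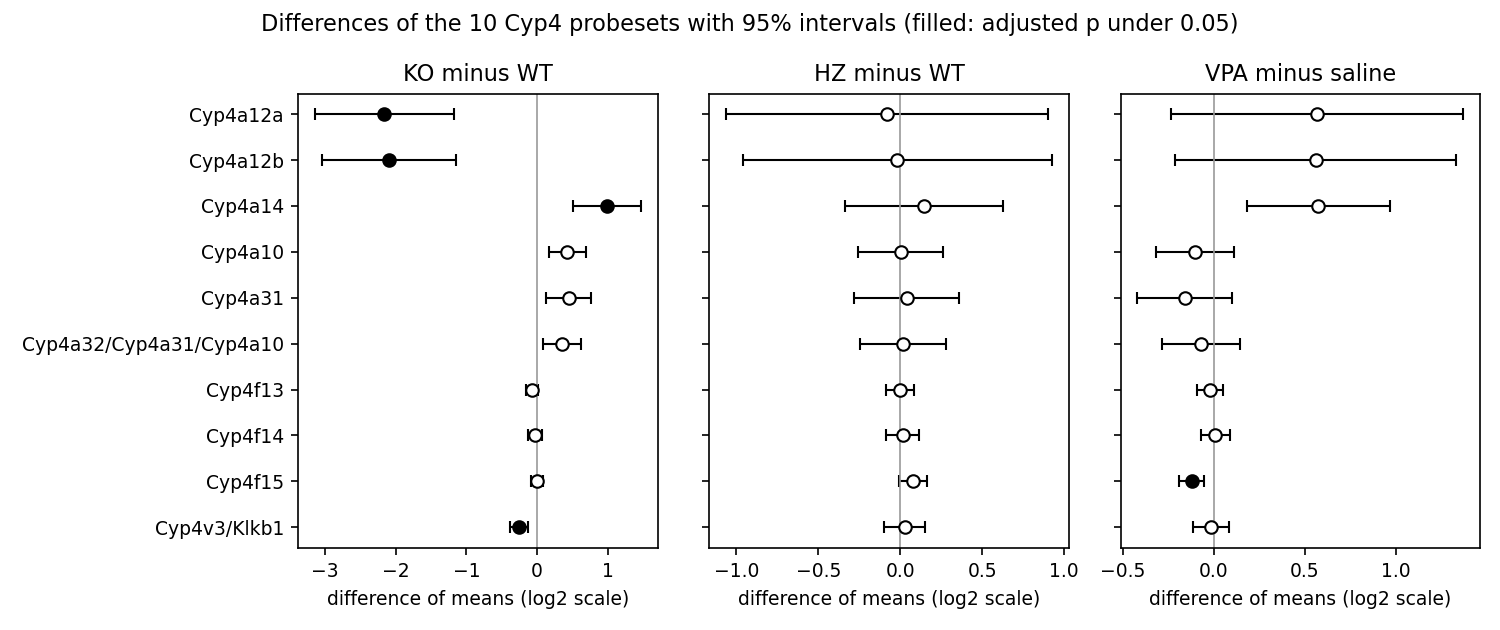
Difference of each Cyp4 probeset on the log2 scale (horizontal axis, a separate range in each panel) with its 95% interval, for KO minus WT, HZ minus WT and VPA minus saline (n = 8 mice in each of the 6 groups). Filled points passed the test at an adjusted p under 0.05, and the Cyp4a12 pair at -2.16 and -2.10 in KO against WT mice has the largest differences among the members in that panel.

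Other genes of the pathway were counted from lists of known function. Of 35 measured PPAR targets of fatty acid oxidation outside the Cyp4 family 4 were higher and none lower in KO than WT mice. Of all probesets 1.37% were higher and 1.57% lower. The list median was 0.02 beside 0.01 over all probesets. The 4 higher targets were the acyl-CoA thioesterases Acot3 (1.83, adjusted p = 6.77e-06) and Acot4 (0.82, adjusted p = 0.000294), the mitochondrial dehydrogenase Acadl (0.37, adjusted p = 0.00338) and the peroxisomal bifunctional enzyme Ehhadh (0.34, adjusted p = 0.0127). The others did not pass. Acot3 also stands on the female-biased list used further on, and Acot4 and Ehhadh stand on that of the later steps of omega-oxidation. Among 12 measured PPAR receptors, their partners and coactivators 2 were higher in KO mice, the coactivator Ppargc1a (0.64, adjusted p = 0.000801) and the pregnane X receptor Nr1i2 (0.29, adjusted p = 0.0104). The receptors themselves did not pass, at -0.02 for Ppara (adjusted p = 0.947), -0.35 for Ppard (adjusted p = 0.0612) and 0.16 for Pparg (adjusted p = 0.674). Within VPA 1 of the 12 was lower and none higher in KO mice, Ppard at -0.81 (adjusted p = 0.00324), which the study had picked in these mice. Within saline Ppard differed by 0.11 (adjusted p = 0.928), and 1 of the 12 was higher, Ppargc1a (0.70, adjusted p = 0.0327). On the whole array 0.405% of probesets passed within VPA and 0.79% within saline.

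Downstream of the Cyp4 step, 5 of 22 measured genes for the later steps of omega-oxidation were higher in KO mice and 3 lower. On the whole array 1.37% of probesets were higher and 1.57% lower. The list median was 0.03 beside 0.01 over all probesets. Abcd2, a peroxisomal importer of very long chain acyl-CoA, was higher by 1.23 (adjusted p = 0.00818). Like Acot3, it also stands on the female-biased list. The alcohol dehydrogenase Adh4 fell by 0.41 (adjusted p = 0.0237), the peroxisomal thiolase and sterol carrier Scp2 by 0.40 (adjusted p = 0.00164) and the aldehyde dehydrogenase Aldh1a1 by 0.34 (adjusted p = 0.00201). None of 5 measured redox partners of microsomal P450 passed in limma, nor any of 7 other Cyp4 genes, for KO against WT or for VPA against saline.

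Under VPA 3 of the 35 PPAR targets were higher and 5 lower, with a list median of -0.01 beside -0.02 over all probesets. On the whole array 8.61% of probesets passed for VPA in either direction and 4.6% were lower. Pdk4, which restrains pyruvate oxidation, was higher by 1.13 (adjusted p = 0.000141) and the fatty acid transporter Cd36 by 0.62 (adjusted p = 0.0163), whereas Acot3 fell by 0.73 (adjusted p = 0.0204) and Acot4 by 0.55 (adjusted p = 0.00244). Of the 12 receptors and partners 2 were higher and 5 lower, with Ppard higher by 0.65 (adjusted p = 1.54e-06) and Ppara lower by 0.36 on the log2 scale (difference -0.36, adjusted p = 5.41e-06). Pparg differed by -0.06 (adjusted p = 0.765). PPAR targets outside the family thus changed in both directions under VPA. In no list did any gene pass for HZ against WT in limma.

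Across mice the PPAR targets of the Cyp4a cluster varied together. Over the 48 mice, with group means removed, Cyp4a10 correlated with Cyp4a31 with r = 0.899 and with Cyp4a14 with r = 0.833. The mean of the PPAR target list correlated with Cyp4a10 with r = 0.689 (rho 0.663, permutation adjusted p = 8.57e-05 for each, r = 0.644 without the 2 mice farthest from the median), with Cyp4a14 with r = 0.563 (rho 0.524, adjusted p = 0.000225 for r) and with Cyp4a31 with r = 0.573 (rho 0.564, adjusted p = 0.000467 for r). With Cyp4a12a it correlated with r = -0.131 (adjusted p = 0.616). The relation with Cyp4a10 was present within the 16 KO mice (r = 0.692, adjusted p = 0.0208) and within the 32 WT and HZ mice (r = 0.707, adjusted p = 0.00072). The 60 relations computed in each set of mice were adjusted by the Benjamini-Hochberg method within the set, and 17 passed over all 48 mice, 10 within the KO mice and 14 within the WT and HZ mice. All values of a mouse come from 1 array.

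The Cyp4a12 pair varied with other male-biased genes. On the whole array 1.57% of probesets were lower in KO than WT mice and 1.37% higher. Of 27 measured male-biased liver genes outside the family 23 were lower and none higher in KO than WT mice, with a list median of -1.01 beside 0.01 over all probesets. They included Elovl3, a fatty acid elongase (-3.65, adjusted p = 1.27e-07), Hsd3b5, a steroid dehydrogenase (-2.56, adjusted p = 0.000265), Cyp7b1, an oxysterol hydroxylase (-2.04, adjusted p = 8.21e-07), and the complement component C6 (-1.92, adjusted p = 6.11e-07). Of 22 measured female-biased genes 16 were higher and none lower, with a median of 1.56, among them the sulfotransferase Sult3a1 (4.19, adjusted p = 7.18e-05), Cyp2b13 (3.53, adjusted p = 0.000144), Cyp2b9 (3.29, adjusted p = 0.0335) and the organic anion transporter Slc22a26 (2.97, adjusted p = 1.07e-05). Under VPA 1 male-biased gene was higher, Elovl3 (1.62, adjusted p = 0.00108), none was lower, and 4 female-biased genes were lower, none higher. For VPA 8.61% of all probesets passed in either direction and 4.6% were lower. All mice were male. Elovl3, Hsd3b5, Cyp7b1, Sult3a1, Cyp2b13 and Slc22a26 (under an older name) are among the genes that the study had picked in these mice, so their direction is not independent evidence.

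The mean of the male-biased list per mouse ran from 10.60 to 10.93 in WT mice given saline and from 8.66 to 10.45 in KO mice given saline, without overlap. The mean of the female-biased list ran from 6.51 to 7.19 in those WT mice and from 6.74 to 9.39 in those KO mice, which overlapped. Within the 16 KO mice, with group means removed, the male-biased mean correlated with Cyp4a12a with r = 0.937 and rho = 0.926 (permutation p = 1e-05 for both, the smallest that 100000 resamples can give, adjusted p = 0.0002 for r), and r was 0.921 without the 2 mice farthest from the median. The female-biased mean correlated with Cyp4a12a with r = -0.761 (adjusted p = 0.003), rho = -0.90 (adjusted p = 0.00012) and r = -0.768 without those 2 mice. For Cyp4a12b the values in KO mice were 0.934 for the male-biased mean and -0.737 for the female-biased mean. The KO mice with the lowest Cyp4a12 levels were thus also low in other male-biased genes and high in female-biased genes.

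Within the 32 WT and HZ mice, where Cyp4a12a hardly varied, the male-biased mean did not pass with Cyp4a12a (r = 0.461, rho = 0.265, permutation adjusted p = 0.0976 for r). With Cyp4a12b it gave r = 0.562 (adjusted p = 0.0155) and rho = 0.46 (adjusted p = 0.0595). The female-biased mean gave r = -0.642 with Cyp4a12b (adjusted p = 0.0018, rho = -0.619) and r = -0.549 with Cyp4a12a (adjusted p = 0.0303, rho = -0.475 with adjusted p = 0.0625). These relations were not limited to the Cyp4a12 pair. Cyp4f13 had the highest r with the male-biased mean among the members in these mice (r = 0.652, adjusted p = 0.0017, rho = 0.619) and passed with the female-biased mean too (r = -0.497, adjusted p = 0.0366, rho = -0.521). Cyp4a14 ran the other way, with r = -0.543 against the male-biased mean in these mice (adjusted p = 0.0114, rho = -0.532), as did Cyp4a31 (r = -0.478, adjusted p = 0.0303, rho = -0.459 with adjusted p = 0.0625), while in the 16 KO mice r was -0.386 for Cyp4a14 (adjusted p = 0.377). Whether these correlations differ between the 2 sets of mice was not tested.

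**Figure D5:**
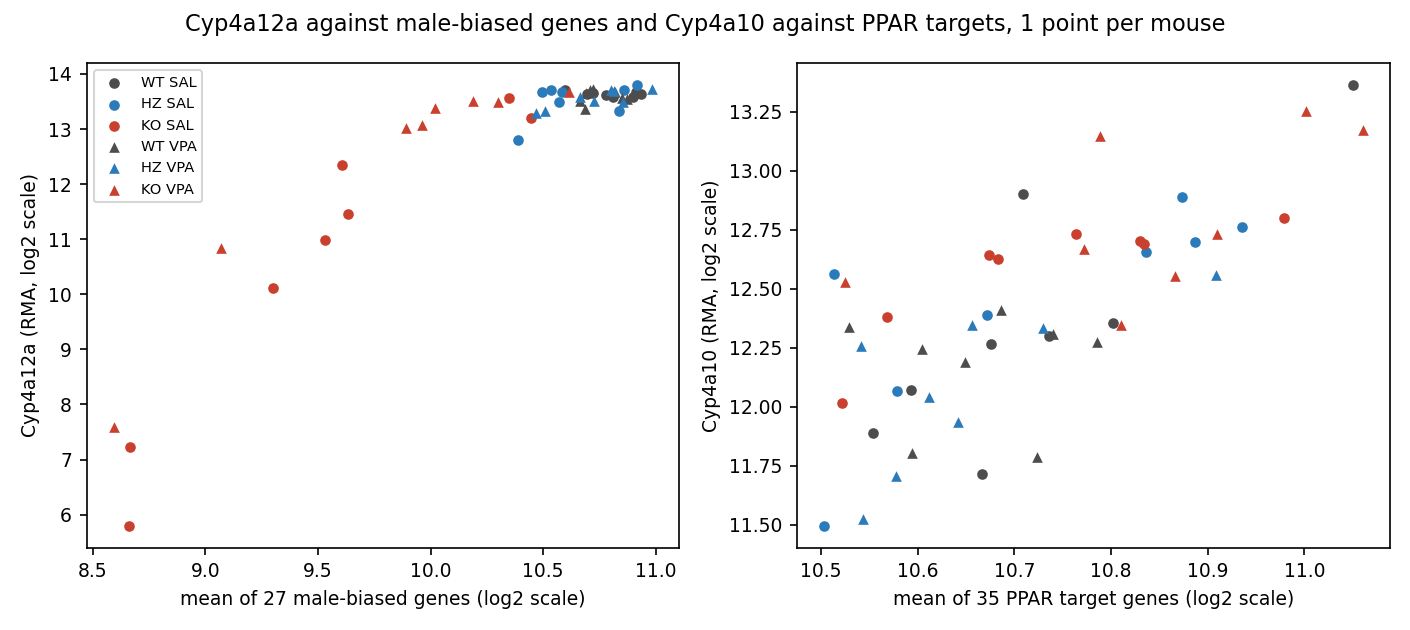
Log2 RMA value of Cyp4a12a (vertical axis) against the mean log2 value of 27 male-biased genes (horizontal axis, left), and of Cyp4a10 against the mean of 35 PPAR targets (right), 1 point per mouse, coloured by genotype with circles for saline and triangles for VPA. Within the 16 KO mice the male-biased mean and Cyp4a12a rise together (r = 0.937 with group means removed), while WT and HZ mice lie close together at the top, and on the right the genotypes overlap along 1 trend (r = 0.689).

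Among 19608 probesets with 1 symbol and a level above the threshold of 5, the patterns most like each member over the 48 mice (Pearson r with group means removed, a description with no test) often came from the family itself. Cyp4a12a and Cyp4a12b were closest to each other (r = 0.992), followed by the organic anion transporter Slco1a1 (0.936 and 0.925) and Hsd3b5 (0.889 and 0.896). For Slco1a1 the likeness came from the KO mice, with r = 0.946 to Cyp4a12a within the 16 KO mice and -0.011 within the 32 WT and HZ mice. Cyp4a10 was closest to Cyp4a31 (0.899), Cyp4a14 (0.833) and Acot1 (0.668), an acyl-CoA thioesterase. Cyp4a31 was also close to Sp5 (0.606) and Cyp4a14 to Tcea2 (0.62). The Cyp4f genes had other neighbours, Cyp2d22 (0.683), Foxo3 (0.673) and Hps4 (0.672) for Cyp4f13, Trim30a (0.644), Bank1 (0.636) and Adgre4 (0.634) for Cyp4f14, and Asgr2 (0.658), Scnn1a (0.623) and Sdhc (0.606) for Cyp4f15.

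Most cell type markers did not pass for KO against WT, where 2.94% of all probesets did. Some periportal, cholangiocyte and lymphocyte markers did pass. None of 12 Kupffer cell markers, 9 sinusoidal endothelial markers, 9 stellate cell markers, 7 hepatocyte markers or 10 pericentral markers passed for KO against WT in limma. Of 5 cholangiocyte markers Sox9 was lower, and of 8 lymphocyte markers Cd4 was lower. None of 4 kidney tubule markers, from a tissue where Cyp4a genes are also expressed, passed for genotype or for VPA, and their mean per mouse ran from 5.78 to 6.24 over all 6 groups. Of 6 periportal markers 1 was higher (Hsd17b13, 0.31) and 2 lower (Cdh1, -0.57, and Cyp2f2, -0.29), beside the lower Cyp4a12 pair. Their part in the Cyp4a12 differences was not tested. Under VPA over the 3 genotypes, where 8.61% of all probesets passed, 6 of 12 Kupffer cell markers and 3 of 9 endothelial markers were higher and none lower. Of 9 stellate cell markers 2 were higher and 1 lower, and of 10 pericentral markers 3 were lower. Within HZ mice, where Cyp4f15 passed, 8 of 12 Kupffer cell, 7 of 9 endothelial and 4 of 9 stellate cell markers were higher under VPA and none lower. There 3 of 10 pericentral markers were lower, and 10.5% of all probesets passed, 5.76% lower. Within WT mice and within KO mice none of these markers passed for VPA, where 0.0703% and 0.0112% of all probesets did. The mean of the Kupffer list per mouse ran from 8.79 to 9.31 in HZ mice given VPA and from 8.10 to 8.91 in HZ mice given saline, beside the lower Cyp4f15 in these mice. None of its markers had a group mean under 5. Their part in the Cyp4f15 difference was not tested.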

How the data were processed

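Liver RNA of 48 mice (300 ng each, RNA integrity number 7 to 9) was hybridized to Affymetrix Mouse Gene 1.0 ST arrays, 1 array per mouse. Per the submitters' notes, the authors summarized probes with RMA, quantile normalization included, in Affymetrix Expression Console 1.1.2800.28061, and deposited log2 values for 35556 probesets, which were used as deposited. RMA compresses differences at the dim and bright ends, and the number of arrays limits the precision. Probeset symbols came from the platform annotation given with the series (1 symbol for 21789 probesets, several for 1621, none for 12146). No column of sample values was left unused. The scan batch of the arrays was not given in the sources used here. Quality values and comparisons made by the authors were not used.

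The 6 group means entered a limma fit (version 3.58.1, R 4.3.3, 42 residual degrees of freedom, eBayes), following the study's genotype by treatment analysis, with Benjamini-Hochberg adjustment over all probesets and a threshold of 0.05. The replicates are separate mice. Differences are on the log2 scale. Exact permutation tests ran over all 12870 splits of 8 against 8 mice, and correlations used 100000 resamples that exchanged mice within their group, with scipy 1.17.1, numpy 2.4.6 and pandas 2.3.3 in Python 3.11.15. Figures were drawn with matplotlib 3.10.9. Correlations within KO mice and within WT and HZ mice were added after the data had been seen.

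Same-numbered mice were not taken as paired, since their residuals correlated above 0.1 in 53 of 120 pairs only. The mean residual correlation was 0.055 for same-numbered pairs and -0.008 for other pairs between groups, so a weak shared effect of the number remains possible. The fits were tested on simulated data. A list gene was represented by its brightest probeset with 1 symbol. The members and lists were chosen with earlier results of these data known, so no list supports a direction independently. Named were all members, up to 4 genes of a list with the largest differences past the test, Ppara, Ppard and Pparg, and the 3 probesets most like each member. Alternatives were array weights, eBayes with trend and robust estimation, an ordinary linear model, arrays centred on their median, probesets with 1 symbol, probesets with a group mean of 5 or more, a replicate block, arrays of the genotypes compared, a clock index as covariate, the study's thresholds and leaving out each array.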

Additional observations from a re-analysis of the deposited data

Results flagged for a closer look

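In 7 of the 60 pairs of probeset and group of 8 mice, 1 mouse stood apart from the other 7, with a gap to its nearest neighbour above 0.526 of the range of the group. Chance gives about 1 in 20 such pairs, and probesets that share accessions or transcripts do not count separately. KO replicate 4 under VPA was the lowest for Cyp4a12a, at 7.59 where the other mice lay between 10.83 and 13.68, and for Cyp4a12b, at 7.64 where the others lay between 10.96 and 13.42. HZ replicate 6 in saline was the lowest for Cyp4a12b, at 12.68 against 13.26 to 13.53. KO replicate 2 in saline was the lowest for Cyp4a31, at 10.79 against 11.55 to 12.15, and for the 3-gene probeset of Cyp4a32, Cyp4a31 and Cyp4a10, at 11.76 against 12.32 to 12.82. HZ replicate 1 in saline was the lowest for Cyp4a14, at 9.34 against 11.76 to 12.96. HZ replicate 5 under VPA was the highest for Cyp4f15, at 11.88 against 11.55 to 11.69.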

How the results depend on the processing

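Of the 10 probesets 4 passed for KO against WT. With the thresholds of the study, applied to the contrasts of this fit, Cyp4a14 missed the 2-fold cut at 1.99-fold and the number was 2. With the replicate block it was 5, as Cyp4a10 joined (adjusted p = 0.0493), and with 1-symbol probesets 4, with Cyp4a10 (adjusted p = 0.0401) and without Cyp4v3/Klkb1, which was then not tested. Leaving out each array gave 4 to 7, with 7 without WT saline replicate 4. For VPA against saline the number was 1, and it became 2 with 1-symbol probesets, with probesets of a group mean of 5 or more and with the replicate block (Cyp4a14 joined, adjusted p = 0.0493). It was 0 with WT and KO arrays alone (Cyp4f15 -0.08, adjusted p = 0.624), with the clock index and at the thresholds of the study, and 1 to 2 when each array was left out. Cyp4f15 turned direction with the clock index, to 0.0155 over the genotypes and 0.0116 in HZ mice. For HZ against WT and for the interaction the number stayed at 0 in every fit that left out an array (0 to 0) and with the replicate block. The block changed no other count of members by over 1.5 times. It raised the counts over all probesets, from 1046 to 1231 for KO against WT and from 3062 to 4004 for VPA. For the interaction that count went from 29 to 54, and for HZ against WT from 1 to 2. With arrays centred on their median, which shifted the median difference for VPA by 0.026, Cyp4f15 had an adjusted p of 0.0791 and Cyp4a14 one of 0.0472. Cyp4f15 in HZ mice then had an adjusted p of 0.057, and 0.052 without HZ saline replicate 4. Over all probesets, 1046 passed for KO against WT, 689 with WT and KO arrays alone, 427 with the clock index and 65 at the thresholds of the study, and for VPA 3062 passed, 78, 0 and 1644 in the same order. The counts at those thresholds come from the contrasts of this fit and are not the numbers of genes that the study printed.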

Other observations

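The order of the KO mice by Cyp4a12a was alike under both treatments when read by replicate number. Replicates 5, 4, 2 and 3 were the lowest in saline, at 5.80, 7.24, 10.11 and 10.98, and replicates 4, 5, 2 and 3 were the lowest under VPA, at 7.59, 10.83, 13.02 and 13.07. The KO mouse given VPA was above the KO mouse given saline of the same number in 7 of 8 numbers for Cyp4a12a and in 8 of 8 for Cyp4a12b, whereas among WT mice this held in 4 of 8 and 6 of 8. What a replicate number stands for (a litter, a cage or a day) was not given in the sources used here, and over all probesets the same-numbered mice did not meet the criterion for pairs, so no paired test was made.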
